A study of Mus musculus with 13 samples.

Results

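The epithelial Ets factors of the mouse submandibular gland are described here, a group of 4 genes out of the 23364 genes measured: Ehf, Elf3, Elf5 and Spdef. They were chosen by name, as Ets transcription factors known for epithelial expression, with no threshold on a measured value, although earlier results of these data were known. RNA was sequenced from whole submandibular glands of C57BL/6 mice in 13 samples at 6 time points. Embryonic glands were taken at E14.5 (3 samples), E16.5 (2 samples) and E18.5 (2 samples), neonatal glands at P5 (2 samples), and adult glands at 4wk and 12wk (2 samples each). All groups were untreated animals of this 1 strain and differ in age. Embryonic samples were pools of glands from several animals, and the 4wk and 12wk glands came from male mice. Sex was not determined for embryos and P5 mice per the study's methods, so that age and sex cannot be told apart where adult samples are compared with younger ones. Levels are fragments scaled to gene length and to the mapped reads of a sample (FPKM), which the authors deposited and which allow genes to be compared per length within a sample. All 4 genes were found in the 13 samples and passed the filter of at least 1 FPKM in at least 1 sample. The replicates of an age are separate libraries. Tests between neighbouring ages use the spread between them, pooled over all 6 ages. Where adult is compared with embryo, the ages of a stage count as replicates. The spread then also holds differences between ages.

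Ets factors share a DNA-binding domain that recognizes a short core, most often GGAA, and differ in the tissues that express them. Ehf, Elf3 and Elf5 form an epithelium-specific branch of the family, whereas Spdef was first described in prostate epithelium. Elf5 is best known as a regulator of the milk-producing alveolar cells of the mammary gland, Spdef as a driver of goblet and other mucous cell differentiation, Elf3 as a factor of gut and airway epithelium that responds to inflammatory signals, and Ehf as a factor of glandular and surface epithelia such as airway, prostate and cornea. Salivary glands grow as branching epithelial buds inside a mesenchyme, and the buds later differentiate into acini, which secrete saliva, and ducts, which carry and modify it.

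In the GENCODE annotation of mm9, the build used by the authors, Ehf lies at chr2:103103590-103143435 on the minus strand and Elf5 at chr2:103251845-103291146 on the plus strand. The pair is arranged head to head, with 108410 bases between the annotated starts. Elf3 lies on chr1:137150151-137155049 and Spdef on chr17:27851297-27865896, both on the minus strand. Upstream sequences are shown because GGAA is the core that most Ets factors recognize. A reader can thus see how often it occurs before the starts of these genes. The core preferred by each single factor was not examined. RefSeq promoter sequences (build GRCm38.p6) were matched for Elf3, for a pair of Elf5 starts and for Spdef; for Ehf none was matched. The 250 bases before the start are given 5′ to 3′ on the strand of the gene, with GGAA or its reverse complement TTCC in capitals, from chr1:135258473-135258722 (minus strand) for Elf3, chr2:103411848-103412097 and chr2:103423818-103424067 (plus strand) for the upstream and downstream Elf5 starts, and chr17:27728952-27729201 (minus strand) for Spdef.
Elf3: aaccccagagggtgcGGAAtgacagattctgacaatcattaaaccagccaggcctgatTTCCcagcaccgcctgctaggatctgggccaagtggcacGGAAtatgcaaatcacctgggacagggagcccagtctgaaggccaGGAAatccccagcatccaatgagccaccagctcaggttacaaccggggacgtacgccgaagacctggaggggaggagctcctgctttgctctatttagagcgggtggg
Elf5 upstream start: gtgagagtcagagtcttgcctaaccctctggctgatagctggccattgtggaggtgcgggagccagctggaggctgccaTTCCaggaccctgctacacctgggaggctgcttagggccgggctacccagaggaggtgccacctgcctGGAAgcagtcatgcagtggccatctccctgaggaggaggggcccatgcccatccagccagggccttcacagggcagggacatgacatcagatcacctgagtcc
Elf5 downstream start: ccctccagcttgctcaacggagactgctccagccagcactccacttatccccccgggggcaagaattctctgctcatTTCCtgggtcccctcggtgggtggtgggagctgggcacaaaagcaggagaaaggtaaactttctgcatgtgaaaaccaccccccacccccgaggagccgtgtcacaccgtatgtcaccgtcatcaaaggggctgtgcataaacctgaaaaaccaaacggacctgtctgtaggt
Spdef: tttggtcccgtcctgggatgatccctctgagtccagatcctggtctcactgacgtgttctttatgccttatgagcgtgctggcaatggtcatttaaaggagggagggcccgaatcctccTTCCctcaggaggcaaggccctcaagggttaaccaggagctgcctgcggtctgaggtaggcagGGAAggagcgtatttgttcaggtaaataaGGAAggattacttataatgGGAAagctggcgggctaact
The core was found 4 times before Elf3, 2 times before the upstream and 1 time before the downstream Elf5 start, and 4 times before Spdef. Such numbers were common, since 93.4% of 32851 promoters of the same length held at least 1 core, with a median of 3, and 33.4% held at least 4. The longer sequence CCGGAA (or TTCCGG), present in 12.0% of promoters, was in none of the 4 windows. These are matches of letters and not measured binding sites.

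The samples differed in ways that touch every level below. The number of reads on genes, recovered from the steps between low FPKM values, was 5817293 to 48314162, with the lowest numbers in both 4wk samples. The 10 most abundant genes took 48.1% to 61.1% of all FPKM in adult samples, 29.2% and 31.1% in P5 samples, and less than these in every embryonic sample (from 5.9%), and the median log2 difference of all tested genes between adult and embryo was -0.75 on the deposited scale. For this reason 2 further scales were used, 1 in which each sample was rescaled by a median-of-ratios factor (0.617 to 1.38), and 1 in which the mean log2(FPKM + 1) of the epithelial adhesion genes Epcam and Cdh1 was subtracted from each gene of the same sample. The same median was -0.08 and -0.16 on these scales. The tissue itself also changed, as the summed level of 10 mesenchymal markers was 1900 to 2790 FPKM in embryonic and 261 to 528 FPKM in adult samples, that of 6 acinar markers 37.1 to 30300 and 52800 to 87600 FPKM, and that of 8 ductal markers 43.8 to 329 and 17700 to 20700 FPKM. In bulk RNA, fewer cells of a type and less RNA per cell cannot be told apart. The first E14.5 replicate stood apart from the other 2, with 101 against 163 and 159 FPKM of Epcam, 292 against 143 and 109 FPKM summed over 6 skeletal muscle markers, and 3050 against 442 and 785 FPKM summed over 5 erythroid markers. The muscle sum was highest in the E16.5 samples, at 482 and 908 FPKM. The part of these differences in the results was not tested. Differences of the factors that moved most without the first E14.5 replicate are also given without it.

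Ehf was the most abundant of the 4 factors in every sample. In the E14.5 samples its level was 31.1, 71.2 and 71.1 FPKM, in those of E16.5 135 and 165 FPKM, and in those of E18.5 248 and 230 FPKM. After birth it was 145 and 161 FPKM in the P5 samples, 177 and 161 FPKM in the 4wk samples and 165 and 191 FPKM in the 12wk samples. The E14.5 samples lay below and the E18.5 samples above all others, while the levels of P5, E16.5, 4wk and 12wk overlapped with their neighbours in rank. Between E14.5 (57.8 ± 23.1, SD, n = 3) and E16.5 (150 ± 20.9, n = 2), Ehf rose by 1.45 ± 0.29 (SE) on the log2 scale, with a limma adjusted p of 0.0068. Without the first E14.5 replicate the difference was 1.06 (adjusted p = 0.00086).

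Elf5 was second in abundance in all adult samples. It measured 13.9, 39.0 and 36.2 FPKM in the E14.5 samples, then 55.0 and 55.1 FPKM in the E16.5 samples and 64.4 and 66.8 FPKM in the E18.5 samples. The P5 samples held 52.9 and 54.5 FPKM, the 4wk samples 82.0 and 79.2 FPKM, and the 12wk samples 67.5 and 68.4 FPKM. In order of mean level, no neighbouring ages overlapped, from E14.5 over P5, E16.5, E18.5 and 12wk to 4wk. All 4 adult samples were above all 7 embryonic samples, although the lowest adult value (67.5) was close to the highest embryonic one (66.8). From E14.5 (29.7 ± 13.8, n = 3) to E16.5 (55.1 ± 0.0856, n = 2) Elf5 was 1.99-fold higher, just under the size limit of 1 on the log2 scale, with an adjusted p of 0.052. This difference was 0.54 (adjusted p = 0.0059) without the first E14.5 replicate, which held the lowest Elf5 value.

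Spdef had the widest range of the 4. The E14.5 samples had 0.654, 12.6 and 8.72 FPKM. Levels of 50.1 and 67.1 FPKM were reached in the E16.5 samples, 62.01 and 65.3 FPKM in the E18.5 samples, and 63.5 and 63.2 FPKM in the P5 samples. In adult samples Spdef was lower, with 36.8 and 38.6 FPKM in 4wk glands and 15.3 and 9.91 FPKM in 12wk glands. The gene was thus low in the youngest and the oldest samples, whose levels overlapped, and high from E16.5 to P5, where neighbouring levels overlapped as well. The lowest value, in the first E14.5 replicate, rested on 23 reads (95% Poisson interval 14.6 to 34.5, which covers counting error only). Spdef rose by 3.29 ± 0.65 on the log2 scale between E14.5 (7.32 ± 6.09, n = 3) and E16.5 (58.6 ± 12.0, n = 2; limma adjusted p = 0.0066), and by 2.36 without that replicate (adjusted p = 8e-05).

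Elf3 was the least abundant factor in 9 of the 13 samples and had the narrowest range in fold. The embryonic values were 11.1, 19.8 and 20.4 FPKM (E14.5), 24.1 and 38.4 FPKM (E16.5), and 22.4 and 24.7 FPKM (E18.5). The later values were 19.0 and 20.6 FPKM (P5), 25.5 and 22.6 FPKM (4wk), and 14.46 and 11.36 FPKM (12wk). In order of mean level, P5 and E18.5 were the only neighbouring ages whose samples did not overlap, and the 4wk values rested on 297 and 360 reads. The difference between E16.5 and E14.5 was 0.84 ± 0.25 on the log2 scale (adjusted p = 0.038) and that between 12wk and 4wk was -0.86 ± 0.27 (adjusted p = 0.066), both under the size limit of 1. Without the first E14.5 replicate the former was 0.58 ± 0.20 (adjusted p = 0.074).

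**Figure D1:**
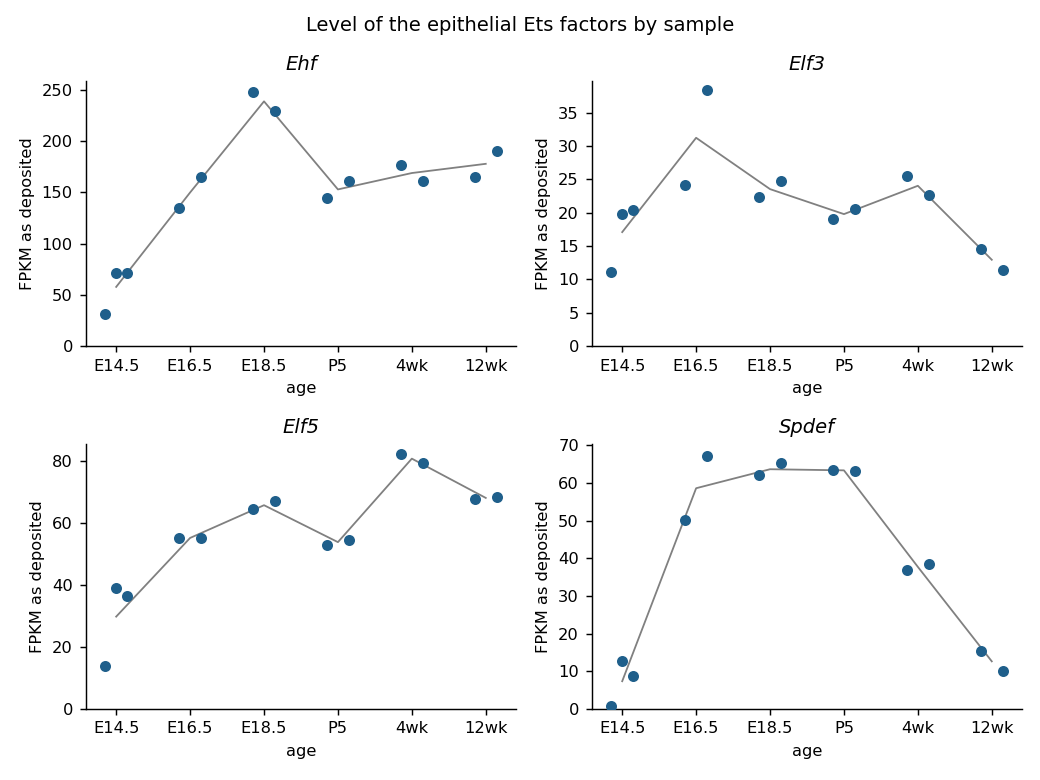
Deposited FPKM (linear y axis from 0) of Ehf, Elf3, Elf5 and Spdef by age, with 1 point per sample and a grey line through the mean of each age. Ehf is highest at E18.5 (248 and 230 FPKM), Spdef is low at E14.5 and 12wk, and the first E14.5 replicate is the lowest of its age for all 4 genes.

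On the deposited scale, 2 of the 4 factors, Ehf and Spdef, passed a log2 difference of 1 with an adjusted p below 0.1 between E16.5 and E14.5, where 5.15% of the 14650 tested genes passed in either direction. No member passed in the later steps between neighbouring ages. For E18.5 versus E16.5, 2.94% of all genes passed, and 0 of 4 members had an unadjusted p below 0.05 in limma. For P5 versus E18.5 the share of all genes was 5.04%, and again 0 members had an unadjusted p below 0.05. For 4wk versus P5 the share was 24.3%, again with 0 members at an unadjusted p below 0.05. For 12wk versus 4wk it was 5.15%, and 1 member, Elf3, had an unadjusted p below 0.05. Spdef was 12.6 ± 3.81 FPKM at 12wk and 37.7 ± 1.27 at 4wk, a difference of -1.54 ± 0.71 on the log2 scale that missed the test (adjusted p = 0.2). Without the first E14.5 replicate the difference of Spdef was past the thresholds (-1.54 ± 0.21, adjusted p = 0.0013).

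Expressed relative to Epcam and Cdh1, the time course looked different. Epcam encodes an epithelial surface protein and Cdh1 the E-cadherin of adherens junctions, and both were present in all samples (101 to 307 and 44.6 to 144 FPKM). Neither changed past the thresholds, but Cdh1 differed by -0.82 ± 0.22 between adult and embryo (adjusted p = 0.0035) and Epcam by 0.95 ± 0.20 between E16.5 and E14.5 (adjusted p = 0.0079), so the reference itself moved in part. On this scale only Spdef passed between E16.5 and E14.5, with a log2 difference of 2.50 ± 0.40 (adjusted p = 0.00024; 1.81 without the first E14.5 replicate), while 29.2% of all genes passed in either direction and 0.949% upward. The difference of Ehf was 0.66 ± 0.29 (adjusted p = 0.054), and 0.10 ± 0.29 with 10 other epithelial genes as reference, beside 1.45 on the deposited scale. Those of Elf3 (0.06) and Elf5 (0.21) were smaller than their standard errors. No member passed for E18.5 versus E16.5, where 1.65% of genes passed and 1 member, Ehf, had an unadjusted p below 0.05, nor for P5 versus E18.5, where 3.41% passed and 0 members had one.

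Elf5 rose relative to the epithelial reference between P5 and 4wk. The relative log2 level was -1.36 and -1.43 in the P5 samples and -0.14 and -0.22 in the 4wk samples, and the 12wk samples (-0.39 and -0.31) lay below those of 4wk and above all others. The difference between 4wk and P5 was 1.21 ± 0.31 (limma adjusted p = 0.0094), and Elf5 was the only member past the thresholds, where 12.6% of all genes passed in either direction and 7.17% upward. The summed level of the 8 ductal markers moved in the same step. It was 852 and 933 FPKM at P5 and 20500 and 20700 FPKM at 4wk. Single markers went both ways. As deposited 4 were called higher and 4 lower, beside 24.3% of all genes in either direction. Relative to the reference 4 were higher and 3 lower. The part of the ductal markers in the difference of Elf5 was not tested. Elf3 differed by 0.90 ± 0.28 (adjusted p = 0.033), under the size limit, and Ehf by 0.78 ± 0.32 (adjusted p = 0.11). The call for Elf5 was lost when the second P5 replicate was left out, although the difference was then still 1.18. Against the rescaled FPKM, Elf5 was higher by 1.24 ± 0.37 (adjusted p = 0.02), where 6.37% of genes were called higher.

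Spdef fell relative to the reference between 4wk and 12wk. The relative log2 level was -1.27 and -1.24 at 4wk and -2.46 and -2.98 at 12wk, a difference of -1.46 ± 0.44 (adjusted p = 0.073), where 4.16% of genes passed in either direction and 1.62% downward. This call was lost when any 1 of the 4 samples of both ages was left out, with differences between -1.72 and -1.20.

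**Figure D2:**
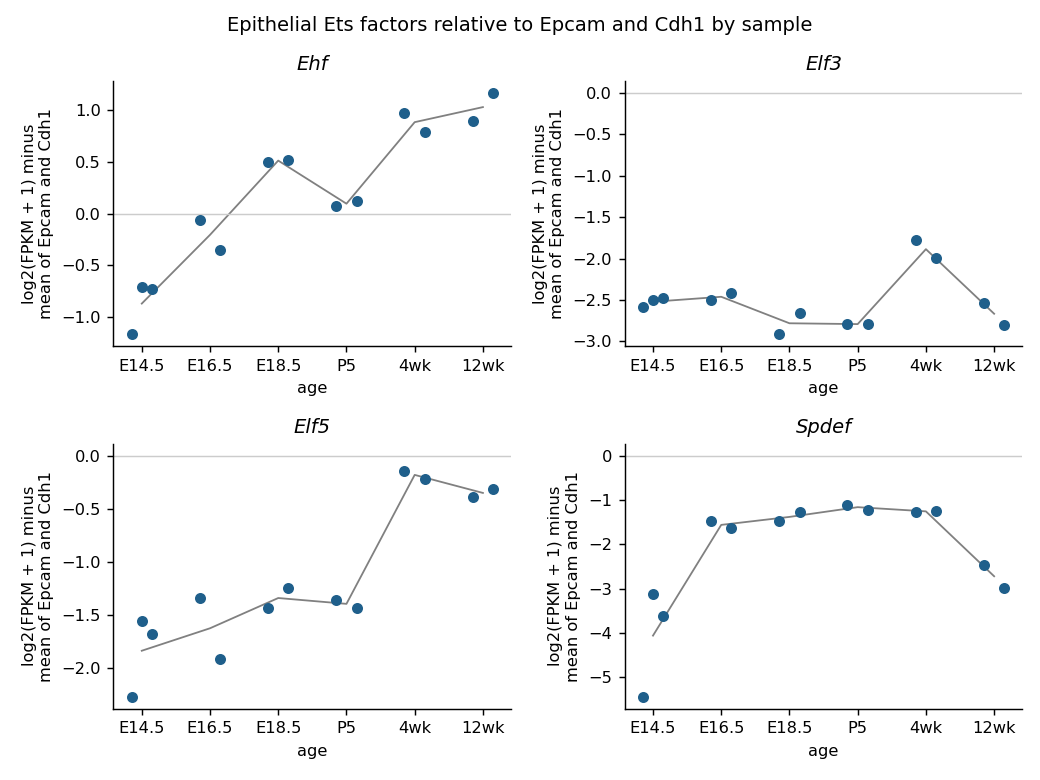
Level of each factor relative to Epcam and Cdh1 (log2(FPKM + 1) minus the mean of both reference genes in the same sample; the y ranges differ) by age, with 1 point per sample and a grey line through the means. Elf5 steps up between P5 and 4wk, Ehf is at 0.79 to 1.16 in the 4 adult samples, and Spdef falls at 12wk.

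The comparison of the 4 adult with the 7 embryonic samples asked which of the factors differ between the mature gland and the forming one. On the deposited scale 0 of 4 members passed, while 43.6% of all genes did, 5.58% upward and 38.0% downward, and 1 member, Elf5, had an unadjusted p below 0.05 in limma. Elf5 differed by 0.77 ± 0.33 on the log2 scale (adjusted p = 0.044), Ehf by 0.64 ± 0.45 (adjusted p = 0.21) and Elf3 by -0.29 ± 0.27 (adjusted p = 0.33). Spdef measured 25.2 ± 14.7 FPKM in adult and 38.1 ± 29.5 in embryonic samples, a log2 difference of 0.00 ± 0.89, and both groups overlapped. Without the first E14.5 replicate the difference was -0.63 ± 0.59 for Spdef, 0.34 for Ehf, 0.52 for Elf5 and -0.45 for Elf3, and no member passed. With that replicate included, the median of the 4 members was 0.32, beside -0.75 for all tested genes.

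Relative to Epcam and Cdh1, Ehf and Elf5 were higher in the adult gland. Ehf was at 0.95 ± 0.16 in adult and -0.28 ± 0.64 in embryonic samples, a difference of 1.24 ± 0.30 (SE; limma adjusted p = 0.003). Elf5 was at -0.26 ± 0.11 and -1.63 ± 0.36, a difference of 1.37 ± 0.24 (adjusted p = 0.00015). The adult and embryonic samples did not overlap for either gene, and the differences were 1.09 and 1.26 without the first E14.5 replicate. On this scale 28.5% of all genes passed, 11.6% upward and 16.9% downward. Elf3 (0.30 ± 0.25, adjusted p = 0.37) and Spdef (0.59 ± 0.60, adjusted p = 0.47) did not pass, and Spdef was at 0.12 without that replicate.

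The scale decided these calls. After median-of-ratios rescaling Ehf was 254 FPKM in the median adult and 109 in the median embryonic sample, and differed by 1.58 ± 0.48 (adjusted p = 0.012). Elf5 differed by 1.71 ± 0.35 (adjusted p = 0.00086) on that scale, where 13.8% of genes were called higher and 14.7% lower. Elf3, which was lower in adult samples on the deposited scale, was higher by 0.61 ± 0.27 after rescaling (adjusted p = 0.067), and Spdef was at 0.87 ± 0.88 (adjusted p = 0.41). Without the first E14.5 replicate the rescaled differences were 1.27 for Ehf, 1.44 for Elf5, 0.45 for Elf3 and 0.26 for Spdef. With a reference of 10 other epithelial genes, among them Krt8, Krt18 and Cldn7, the differences were 0.57 ± 0.34 for Ehf and 0.71 ± 0.33 for Elf5, and no member passed. Of those 10 genes 3, Spint2, Rab25 and Ap1m2, were themselves higher in adult samples relative to Epcam and Cdh1. Over the 13 samples Rab25 was also the gene most correlated with Elf5 (r = 0.984), and Spint2 was among those most correlated with Ehf (r = 0.957). This reference thus shares part of the course of both factors, and subtracting it lessens their differences.

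**Figure D3:**
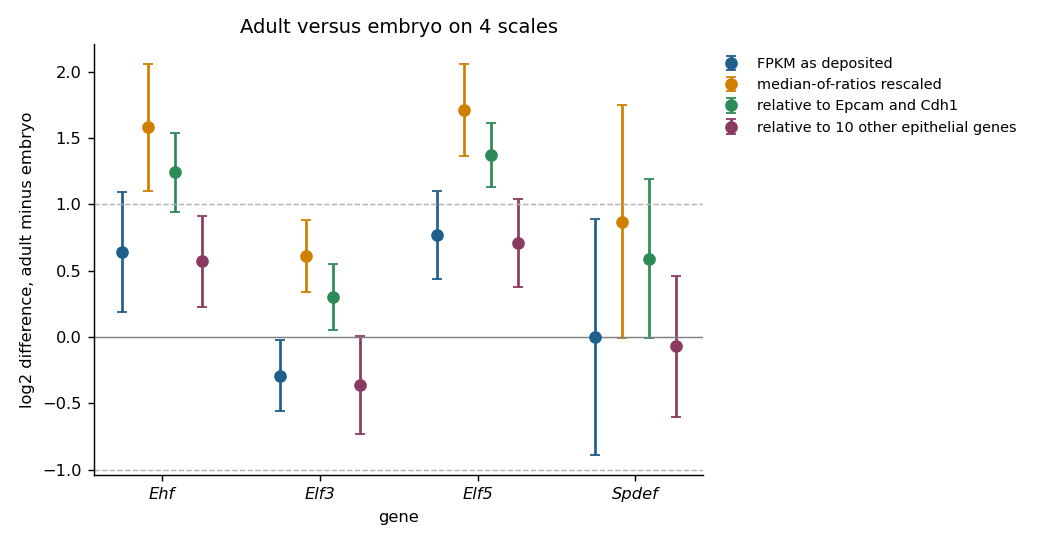
Log2 difference of each factor between adult (n = 4) and embryonic (n = 7) samples on 4 scales, with bars of 1 standard error from limma and dashed lines at the size limits. Ehf and Elf5 are above 1 after rescaling and relative to Epcam and Cdh1, and below 1 as deposited and relative to 10 other epithelial genes.

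The ratio of a pair of factors within a sample does not depend on how that sample was scaled, except through the pseudocount of 1. Elf3 relative to Elf5 was the pair that differed. The log2 ratio of Elf3 to Elf5 was -2.49 to -1.65 in the 4 adult samples and -1.48 to -0.31 in the 7 embryonic samples, without overlap, and fell by 1.07 between embryo and adult. The two-sided exact permutation p was 0.0061, the smallest that 330 labelings can give, and 0.036 after adjustment over the 6 pairs of factors. In the other 5 pairs the adjusted p was 0.2 to 0.79. The labelings exchange single samples, so replicates of an age count as independent although they share that age. As plain FPKM, the ratio of Elf3 to Elf5 was 0.508 to 0.795 (E14.5), 0.438 to 0.697 (E16.5), 0.348 to 0.369 (E18.5) and 0.36 to 0.377 (P5). Adult values were 0.286 to 0.311 (4wk) and 0.166 to 0.214 (12wk). Whether this ratio stepped between stages or drifted with age was not tested. Ehf to Elf5 had the most even ratio, with a log2 mean of 1.22 ± 0.20 in adult and 1.35 ± 0.41 in embryonic samples (difference -0.13, exact permutation p = 0.57).

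The levels of Ehf and Elf5, the neighbours on chromosome 2, followed each other over the 13 samples, with a Pearson r of 0.93 on log2(FPKM + 1) and 0.90 relative to Epcam and Cdh1. The correlation of Spdef was 0.82 with Ehf and 0.76 with both Elf3 and Elf5, and that of Elf3 was 0.43 with Ehf and with Elf5. Relative to Epcam and Cdh1, r of Spdef was 0.59 with Ehf, 0.13 with Elf3 and 0.41 with Elf5, and r of Elf3 was 0.16 with Ehf and 0.45 with Elf5. After rescaling Elf3 reached 0.76 with Ehf and 0.81 with Elf5, and all 6 pairs lay between 0.70 and 0.96. On the relative scale both genes of a pair also share the reference subtracted from them. All these correlations describe 13 samples that share libraries, time points and total scaling, which include the first E14.5 replicate, low for all 4 genes. Over the 12 other samples, on the deposited scale, r was 0.83 between Ehf and Elf5, 0.59 between Ehf and Spdef, 0.64 between Elf3 and Spdef, 0.35 between Elf5 and Spdef, and 0.05 and -0.03 between Elf3 and the pair Ehf and Elf5.

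The genes with the most similar course over the 13 samples differed between the factors. For Ehf they were Prr15l (r = 0.967), Fxyd3 (0.966), Cldn10 (0.963), Cd9 (0.962) and Spint2 (0.957), of which Fxyd3 encodes a regulator of the sodium pump, Cldn10 a tight junction claudin and Spint2 a membrane protease inhibitor. For Elf5 they were Rab25 (0.984), 1190003J15Rik (0.952), Wwc1 (0.947), Pon2 (0.945) and Kcnn4 (0.944), where Rab25 encodes an epithelial trafficking GTPase and Kcnn4 a calcium-activated potassium channel. For Spdef they were Tmem79 (0.96), Krt23 (0.96), D630039A03Rik (0.956), Epn3 (0.952) and the simple-epithelium keratin gene Krt18 (0.95). For Elf3 the values were lower, with Crip2 (0.913), Sh3yl1 (0.885), Crip3 (0.872), Fam181b (0.868) and the claudin gene Cldn1 (0.866). Relative to Epcam and Cdh1, r was 0.986 between Rab25 and Elf5, 0.962 between Prr15l and Ehf, and 0.576 between Crip2 and Elf3. The same reference was subtracted from both genes of a pair, which by itself can shape r on this scale. Without the first E14.5 replicate, r of the genes named was 0.911 to 0.943 with Ehf, 0.848 to 0.953 with Elf5, 0.894 to 0.963 with Spdef and 0.813 to 0.881 with Elf3.

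Among the other Ets family genes more were lower than higher in the adult gland. In a list of 22 further family members, all in the files and 19 of them tested, 13 were lower and 1 higher in adult than in embryonic samples on the deposited scale, with a median log2 difference of -1.38 beside -0.75 for all genes, of which 38.0% were lower and 5.58% higher. Relative to Epcam and Cdh1, 6 were lower and 1 higher, with a median of -0.78 beside -0.16 for all genes, of which 16.9% were lower and 11.6% higher. Etv5 and Etv4, which act downstream of fibroblast growth factor signaling in branching organs, fell most. Etv5 was 60.7, 70.9 and 76.3 FPKM at E14.5 and 1.32 to 3.10 FPKM in the adult samples. Between adult and all embryonic samples its log2 difference was -3.60 ± 0.42 (limma adjusted p = 3.7e-06) as deposited and -3.01 ± 0.50 relative to the reference. Etv4 was 16.8 to 18.0 FPKM at E14.5 and 0.14 to 0.39 FPKM in adult samples, and differed by -3.34 ± 0.29 between adult and all embryonic samples. The other 4 genes that were lower on both scales were Erf, Ets1, Elk3 and Elf4, of which Ets1 is also expressed in endothelium and lymphocytes.

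Etv1 was the exception among these genes. This close relative of Etv4 and Etv5 started from 4.10, 7.66 and 7.63 FPKM in the E14.5 samples, reached 43.6 and 40.0 FPKM in the E18.5 samples and stood at 34.1 to 43.6 FPKM in the adult samples. It was higher in adult than in embryonic samples by 1.34 ± 0.51 (adjusted p = 0.028) as deposited and by 1.93 ± 0.35 (adjusted p = 0.00018) relative to Epcam and Cdh1. The vascular Ets genes Erg and Fli1 differed by -1.43 and -1.52 as deposited and did not pass relative to the reference. The sum of 6 endothelial markers was 117 to 145 FPKM in embryonic and 27.1 to 48.9 FPKM in adult samples, and its part in the levels of Ets1, Erg and Fli1 was not tested. Fev and Etv2 were listed at or below 0.07 FPKM in every sample.

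**Figure D4:**
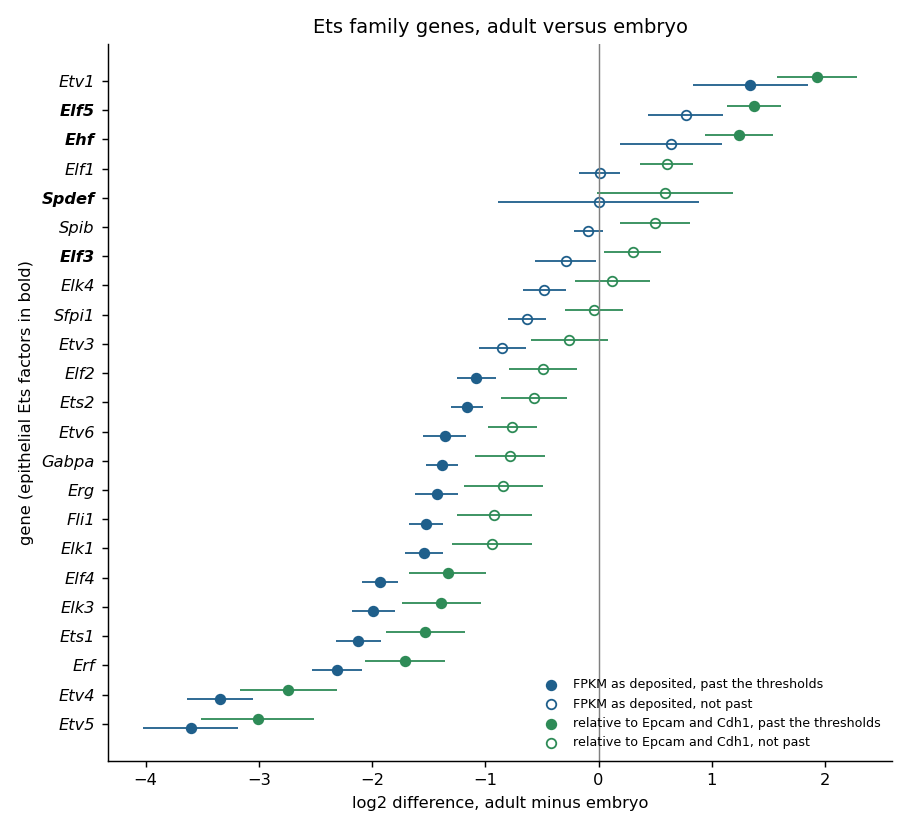
Log2 difference between adult (n = 4) and embryonic (n = 7) samples for 23 tested Ets family genes, as deposited and relative to Epcam and Cdh1, with bars of 1 standard error; filled points passed both thresholds. Etv1, Elf5 and Ehf are the genes past the thresholds upward relative to Epcam and Cdh1, and Etv4 and Etv5 lie lowest.

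Among 20 other transcription factors of epithelia, 19 of them tested, 3 were higher and 7 lower in adult samples on the deposited scale, 3 higher and 3 lower relative to Epcam and Cdh1, and 4 higher and 2 lower after rescaling. The shares of all genes were 5.58% higher and 38.0% lower as deposited, 11.6% and 16.9% relative to the reference, and 13.8% and 14.7% after rescaling, so the number lower was near that of all genes on the first 2 scales. The 3 genes higher on each scale were Ascl3, a marker of a ductal cell population, Bhlha15, the acinar secretory factor also called Mist1, and Tfcp2l1, which is found in ducts. Bhlha15 was 0.61 to 4.97 FPKM at E14.5 and 131 to 187 FPKM in adult samples, a larger range than that of Ehf or Elf5. Sox2, a factor of acinar progenitors, and Grhl3, a factor of surface epithelium, were lower on each scale, with log2 differences of -1.32 and -1.09 relative to the reference (adjusted p = 0.0026 and 0.056). In this list Grhl3 and Gata3 reached 1 FPKM only in embryonic samples, so the filter itself favoured a lower adult level in them. Of 24 genes of epithelial junctions and polarity, 1 was higher and 1 lower as deposited, and 6 higher and 1 lower relative to the reference, beside 5.58% higher and 38.0% lower, and 11.6% higher and 16.9% lower, of all genes. Dsg2, a desmosomal cadherin, was higher by 1.84 ± 0.23 and Cldn6, a claudin of embryonic epithelia, was at -2.14 ± 0.44 on the relative log2 scale.

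Genes of mucous secretory cells, the cell type with which Spdef is associated, were followed as a list of 20, of which 19 were in the files and 10 were tested. Between E14.5 and E16.5, 9 of the 10 tested genes were called higher on the deposited scale, beside 4.17% of all tested genes. Relative to Epcam and Cdh1, 4 were called higher, beside 0.949% of all tested genes. Foxa3, Ern2 and Gcnt3 reached 1 FPKM only in E16.5 or E18.5 samples, so the filter itself favoured a rise in them. Muc19 and Spink4 were also below 1 FPKM in every E14.5 sample and passed the filter only through later ages. The counts of called genes include all of these genes. Genes in this paragraph other than those called between adult and embryo were named after their values were seen. Agr2, a disulfide isomerase needed to fold mucins, was 1.36, 2.44 and 2.81 FPKM at E14.5 and 132 and 85.9 FPKM at E16.5. Creb3l4, a transcription factor of secretory cells, was 2.60, 5.41 and 5.15 FPKM at E14.5 and 35.6 and 46.1 FPKM at E16.5. Muc19, the gel-forming mucin of the mouse sublingual gland, which lies against the submandibular gland, was 0.02 to 0.24 FPKM at E14.5 and 15.9 and 33.5 FPKM at E16.5. Like Spdef, all 3 genes were higher in both E16.5 samples than in the 3 E14.5 samples.

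Between 4wk and 12wk, 3 of the 10 tested genes were called lower on both scales and 0 were called higher. Of all genes, 2.48% were lower as deposited and 1.62% relative to the reference. Muc19 was 103 and 82.3 FPKM at 4wk and 0.03 and 2.19 FPKM at 12wk, Creb3l4 was 16.8 and 33.3 against 1.30 and 1.95 FPKM, and Galnt12, which starts O-glycans on mucins, was 12.4 and 7.60 against 0.93 and 1.25 FPKM. The adjusted p relative to Epcam and Cdh1 was 3.4e-10, 9.4e-08 and 3.3e-05. These genes fell in the same pair of ages as Spdef, and whether the glands at 12wk held fewer mucous cells or less neighbouring tissue was not tested. Between adult and embryo, 2 of the 10 tested genes were called lower as deposited, Spink4 and Galnt12, beside 38.0% of all genes. Xbp1, a factor of the secretory stress response, was called higher relative to Epcam and Cdh1 (1.43 ± 0.29, limma adjusted p = 0.00053) and not as deposited. After rescaling, 2 genes of the list were called higher and 2 lower, beside 13.8% and 14.7% of all genes. The goblet cell genes Muc2, Muc5ac and Tff3 were at or below 0.14 FPKM in every sample.

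**Figure D5:**
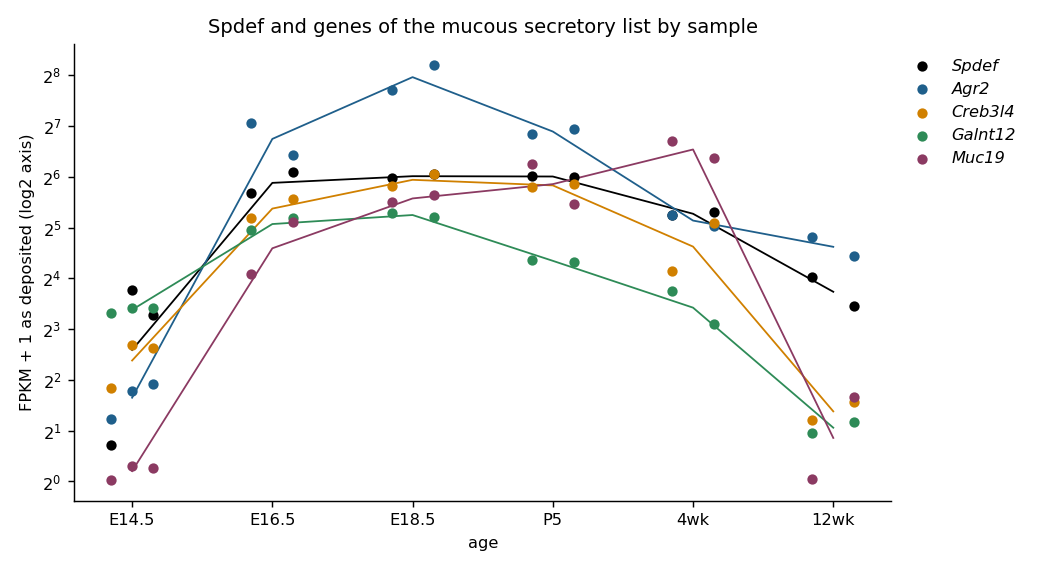
Deposited FPKM + 1 (log2 y axis) of Spdef and 4 genes of the mucous secretory list by age, with 1 point per sample and lines through the means of the log2 values. All 5 genes are higher in both E16.5 samples than in the E14.5 samples, where Galnt12 is at 9.01 to 9.65 FPKM, and Muc19, Creb3l4 and Galnt12 are below 3 FPKM in both 12wk samples.

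A list of 13 genes of mammary alveolar cells, where Elf5 is best known, was compared between adult and embryo as well. Of these, 9 were tested, and 0 were higher and 5 lower in adult samples on the deposited scale (5.58% and 38.0% of all genes), against 1 higher and 2 lower relative to Epcam and Cdh1 (11.6% and 16.9% of all genes). Gata3 and Csn1s1 reached 1 FPKM only in embryonic samples, so the filter itself favoured a lower adult level in them. Ltf, which encodes lactoferrin, and Csn3, which encodes the milk protein kappa-casein, were highest at E18.5 (14.7 and 10.6 FPKM, and 10.2 and 13.9 FPKM) and fell to at most 1.31 and 1.17 FPKM in adult samples. Their log2 differences relative to the reference were -1.52 ± 0.35 and -1.34 ± 0.40 (adjusted p = 0.0019 and 0.011). Csn1s1, another casein gene, was 0.12 FPKM in the first and at least 12.4 FPKM in the other 2 E14.5 samples and was listed at 0 in all 4 adult samples. Prlr, the prolactin receptor, was higher relative to the reference by 1.56 ± 0.31 (adjusted p = 0.0004), at 3.02 ± 0.347 FPKM in adult and 1.06 ± 0.191 FPKM in embryonic samples. The milk genes Wap, Lalba and Csn2 did not exceed 0.07 FPKM.

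Of 14 genes of surface barrier and inflamed epithelium, which include genes linked to Elf3, 12 were in the files and 9 were tested. On the deposited scale 1 was higher and 5 lower in adult samples, and relative to the reference 1 was higher and 2 lower. Sprr1a, Tgm1, Krt13, Lor and Nos2 reached 1 FPKM only in embryonic samples, so the filter itself favoured a lower adult level in them. With 5.58% higher and 38.0% lower of all genes on the first scale and 11.6% and 16.9% on the second, the relative counts were near those of all genes. Lcn2, an antimicrobial protein that binds bacterial siderophores, was higher by 1.70 ± 0.34 relative to the reference (adjusted p = 0.00053), at 44.8 to 81.6 FPKM in adult samples. It was 3.53 FPKM in the first E14.5 replicate, 27.2 to 40.1 FPKM in the other embryonic samples, and 7.16 and 7.98 FPKM at P5. The part of that E14.5 replicate in the difference of Lcn2 was not tested. Ccl20, a chemokine of epithelia, and Krt4, a keratin of stratified mucosa, were lower on both scales, with differences of -1.72 and -1.55 on the relative log2 scale. Elf3 itself passed between adult and embryo on none of the 3 scales.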

How the data were processed

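RNA of 13 submandibular gland samples was sequenced as 50-base single-end reads. Per the labels and the study's methods, the authors mapped them to mm9 with TopHat2 2.0.13 and Bowtie2 2.2.6, counted unique reads with featureCounts, and deposited 1 FPKM value per gene and sample. A median normalization between samples is described in the methods, but the deposited FPKM had median-of-ratios factors of 0.617 to 1.38 and were treated as scaled to each sample's total. Counts were not used.

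Genes reaching 1 FPKM in any sample (14650) entered limma 3.58.1 under R 4.3.3 as log2(FPKM + 1). The prior variance followed the mean level, and p-values were adjusted after Benjamini and Hochberg. Fold changes on this scale understate the change of low genes. A gene was called at an absolute log2 difference of at least 1 and an adjusted p below 0.1, the study's thresholds. Neighbouring ages were compared in a fit of the 6 ages, and adult with embryo in a fit of 3 stages. The fits were tested on simulated data. Pairwise ratios were tested with exact permutation tests (scipy 1.17.1) and called at an adjusted p below 0.05. Depth was read from whole multiples of 1 read (tolerance 0.001 reads), which 21.3% to 40.1% of the values worth under 3 reads met with the annotated gene lengths, and the reads behind a factor from a length at which all 13 values were whole.

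The members and gene lists were chosen with earlier results of these data known, and the study had placed some of the 4 genes in its own lists from these samples, so neither is independent evidence. Named genes were the 4 factors, both reference genes, the 5 tested genes most correlated with each factor, and of each list at most the 3 called genes of largest difference per direction, with all called ones allowed for transcription factors. Genes named in the text that were not called between adult and embryo, such as Fev, Etv2, Agr2, Muc19, Muc2, Csn1s1 and Wap, are outside this rule and were chosen after their values were seen. Markers of other cell types were summed. Alternatives tried were a smaller pseudocount (0.1), other filters, an adjusted p below 0.05, no trend, a replicate block, other scalings and references, only the samples compared, ages averaged by stage, and each sample left out.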

Additional observations from a re-analysis of the deposited data

Results flagged for a closer look

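In the 16 groups examined for the 4 factors, each of 7 embryonic or 4 adult samples on the deposited or the relative log2 scale, 1 sample stood apart. Elf5 in the first E14.5 replicate was 3.90 on the log2(FPKM + 1) scale, with an embryonic median of 5.81, and its gap to the nearest sample took 0.604 of the range of the 7 embryonic samples. Chance alone would mark about 1 in 20 groups if the samples of a group came from 1 distribution. That rate does not apply strictly here, since the embryonic groups mix ages with different levels and both scales hold the same genes. The same sample was also the lowest E14.5 replicate for Ehf, Elf3, Spdef and Epcam.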

How the results depend on the processing

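Of the 285 counts of called factors or ratios recomputed under an alternative, 256 stayed within 1.5 times the reported count. On the deposited scale, median-of-ratios rescaling called 1 factor for 4wk versus P5 and 2 for adult versus embryo, and leaving out the first E14.5 replicate as well, a combination chosen after seeing the data, gave 1 and 2 for these and 1 for 12wk versus 4wk. Relative to Epcam and Cdh1, the count for 12wk versus 4wk was 0 with a pseudocount of 0.1, an adjusted p below 0.05, no variance trend or Cdh1 alone, and 2 with Epcam alone, and that for adult versus embryo was 0 with 10 other epithelial genes as reference. With 1 sample left out, counts ranged from 0 to 1 for 12wk versus 4wk on both scales and from 0 (without the second P5 replicate) to 2 (without the second 4wk replicate, Elf3 being added at 1.01) for 4wk versus P5 on the relative scale. For the ratios, called at an adjusted p below 0.05, the count was 0 each time a sample was left out, where the smallest adjusted p a lone pair can reach is 0.057 without an embryonic and 0.1 without an adult sample.

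The replicate number was also fitted as a block, although samples of the same number did not deviate together (mean r = -0.016 over 30 pairs, -0.352 to 0.273), so it is taken as a name only. With the replicate block the count for E16.5 versus E14.5 on the deposited scale was 3, Elf5 being added (1.20 ± 0.32, adjusted p = 0.046), and no other count differed.

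Of 1166 values of single factors and ratios recomputed, 22 changed sign, 22 lost and 15 gained a call. After rescaling, Elf3 for adult versus embryo was at 0.61 and Spdef for P5 versus E18.5 at 0.15, and at 0.45 and 0.15 also without the first E14.5 replicate. With Epcam alone, Elf3 was at -0.11 for E16.5 versus E14.5 and 0.08 for P5 versus E18.5, Elf5 at 0.04 for the latter, and Ehf at -0.13 for 12wk versus 4wk. With Cdh1 alone, Elf5 was at 0.11 for 12wk versus 4wk. With the 10 other genes, Elf3 and Elf5 were at -0.51 and -0.36 for E16.5 versus E14.5, Ehf at -0.01 for 12wk versus 4wk, and Elf3 and Spdef at -0.36 and -0.07 for adult versus embryo. The cause was not tested. With 1 sample left out, Spdef ranged from -0.07 to 0.34 for E18.5 versus E16.5 and from -0.04 to 0.03 for P5 versus E18.5, and Ehf from -0.03 to 0.18 for 12wk versus 4wk, as deposited. On the relative scale Elf5 ranged from -0.08 to 0.49 for E16.5 versus E14.5, and Elf3 and Elf5 from -0.14 to 0.12 and from -0.14 to 0.03 for P5 versus E18.5. The log2 ratio of Elf3 to Spdef ranged from -0.53 to 0.19. Most ages have 2 samples, which limits the size of difference that can be called.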
